A study of Homo sapiens with 12 samples.

Results

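The 10 array entries described here carry miRNA names but lie in, or closely match, structural RNAs. They are hsa-miR-923, from 28S ribosomal RNA, hsa-miR-1308, hsa-miR-720, hsa-miR-1274a, hsa-miR-1274b, hsa-miR-1280 and hsa-miR-1260, which match transfer RNAs, hsa-miR-886-3p and hsa-miR-886-5p, from the vault-like RNA nc886, and hsa-miR-1246, which is linked to the small nuclear RNA U2. They were chosen by name from the 851 human miRNA names on the array. The cells were SaOS-2, a human osteosarcoma line, and 2 stable CD99 transfectants of it, Sa/CD99wt22 and Sa/CD99wt36 (together Sa/CD99), selected in neomycin. CD99 is a cell surface glycoprotein. Total RNA was taken after 0, 7 and 14 days in osteogenic differentiation medium, which gave 6 groups of 2 arrays: SaOS-2 and Sa/CD99 at each day. Each Sa/CD99 group holds 1 array of clone 22 and 1 of clone 36, so its spread is that between clones, while what separates SaOS-2 replicates 1 and 2 is not given, and p-values measure only the spread between such arrays. The parental cells were not described as carrying an empty vector.

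A canonical miRNA is cut from a hairpin precursor by Drosha and Dicer and guides Argonaute to messenger RNAs through its seed, bases 2 to 8. Sequencing of small RNA also recovers pieces of ribosomal, transfer and small nuclear RNA, and several such pieces were named as miRNAs before their parent RNA was recognised and the name was withdrawn. Transfer RNA pieces can be made by regulated cleavage, for example by angiogenin under stress, and nc886 binds and inhibits the kinase PKR. An array probe reads RNA of matching sequence, and its signal alone does not show whether that RNA is a mature miRNA or another piece of the parent RNA. The values below are therefore levels of probe signal under each entry's name.

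RefSeq (GRCh38.p14) matched 4 of the 10 entries, at 3 loci. Both hsa-miR-886 entries fall to VTRNA2-1, annotated as a vault RNA at chr5:136080491-136080598. MIR1246 and MIR1260A remain listed as miRNA genes, so for hsa-miR-1246 and hsa-miR-1260 the annotation does not bear out the description of a former miRNA. The mature sequences of these are shown because they are the entries that still have a miRNA seed on record, with hsa-miR-1260b, which had no name on the array, beside its near copy. The seed is in capitals.
hsa-miR-1246: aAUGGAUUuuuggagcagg
hsa-miR-1260a: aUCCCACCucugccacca
hsa-miR-1260b: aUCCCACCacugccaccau
The hsa-miR-1246 sequence lies at chr2:176601024-176601042 on the minus strand. The hsa-miR-1260a sequence lies at chr14:77266231-77266248 on the plus strand, within the span of the neuroglobin gene NGB, and hsa-miR-1260b at chr11:96341447-96341465 on the plus strand, within the span of MAML2. Both share the seed UCCCACC and differ by 1 substitution, U9A, counted from the 5′ end of hsa-miR-1260a, and by 1 more base at the 3′ end, so signal named hsa-miR-1260 may hold both.

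The deposited records do not agree on which array is which sample. Each of the 12 columns of the deposited log2 table had the same detected and undetected names as exactly 1 scanner array, with 0 mismatches over 849 shared names against at least 21 for the next best array, and 0 of the 12 arrays were filed under the same sample as their column. The values below follow the column labels of the table, and scanner signals are given under the label of the paired column. The deposited arrays and table do not by themselves settle which record names the cells rightly, and the results under the filed samples are given where they differ. By the column labels, both groups of day 0 and SaOS-2 of day 7 lay on 1 slide and the other 3 groups on the other slide. The total signal of human names ran from 8594 to 11371 on the 4 arrays of day 0 and from 25232 to 62236 on the other 8, with 133 to 158 and 158 to 229 names detected.

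The 10 entries took a small part of the human miRNA signal at day 0 and most of it later. A share here is of brightness, which differs between probes for reasons other than abundance. At day 0 their share was 14.7% and 16.7% on the SaOS-2 arrays and 11.5% and 14.2% on those of Sa/CD99. At day 7 it was 66.1% and 66.0% in SaOS-2 and 70.4% and 71.9% in Sa/CD99. At day 14 it was 68.4% and 56.6% in SaOS-2 and 72.0% and 66.6% in Sa/CD99. The 4 arrays of day 0 lay below all 8 later arrays, with no overlap, in both cell types. The mean share was 51.6 percentage points higher at day 14 than at day 0, against an SD within groups of 3.89 points, and 3.01 points higher in Sa/CD99 than in SaOS-2, which is within that spread. hsa-miR-923 alone accounted for more than the whole rise, taking 2.12% to 6.502% at day 0 and 48.4% to 66.8% later, while the other 9 entries together took 8.07% to 14.6% and then 3.75% to 8.22%. That total holds hsa-miR-923 itself, and of the human signal without it the other 9 took 8.36% to 14.9% at day 0 and 10.6% to 18.8% later. The signal of names outside the 10 entries ran from 7378 to 9467 at day 0 and from 8558 to 20789 later, so the later arrays were brighter beyond these entries too. The part of total array brightness in the rise was not tested.

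**Figure D1:**
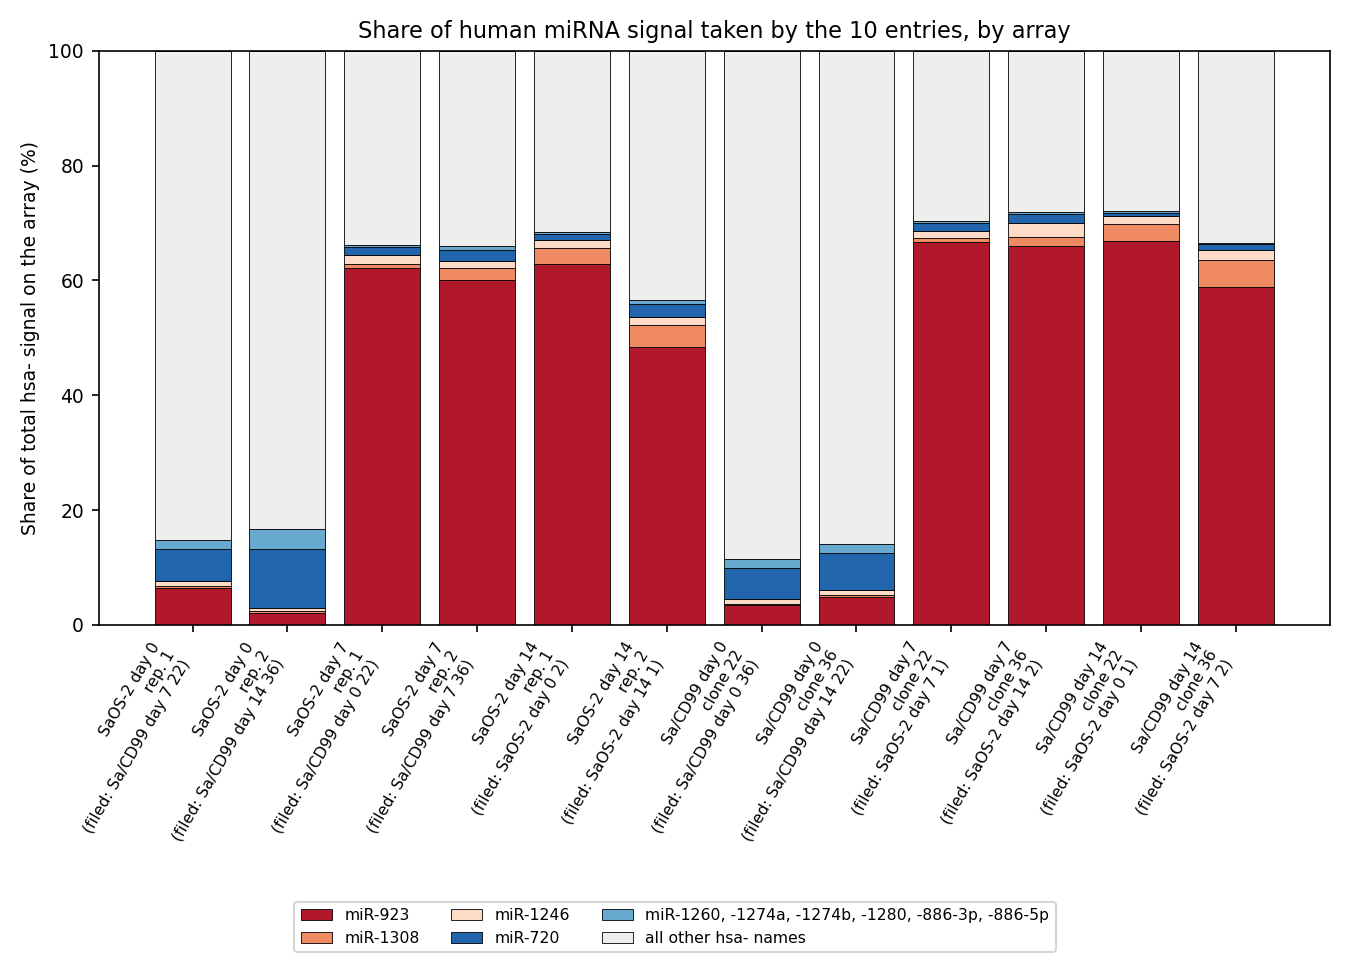
Share of the summed signal of all human names on each array (%, y axis) taken by hsa-miR-923, hsa-miR-1308, hsa-miR-1246, hsa-miR-720, the other entries and all remaining names, for the 12 arrays by the column label of the table with the filed sample in brackets. The entries take 11.5% to 16.7% at day 0 and 56.6% to 72.0% on the other arrays, and the 4 low arrays are all filed as Sa/CD99.

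hsa-miR-923, the entry from 28S ribosomal RNA, was the brightest human name on all 8 arrays of days 7 and 14 and ranked 4 to 11 at day 0. Its signal at day 0 was 620 and 241 in SaOS-2 and 317 and 417 in Sa/CD99. At day 7 it was 15662 and 33993 in SaOS-2 and 27220 and 26837 in Sa/CD99. At day 14 it was 25071 and 22415 in SaOS-2 and 38150 and 36645 in Sa/CD99. No array of day 0 reached the level of any later array. On the log2 scale of the table it rose by 5.87 ± 0.51 (SE, n = 2 arrays a group) from day 0 to day 7 in SaOS-2 (limma, adjusted p = 3.45e-05) and by 5.65 ± 0.51 to day 14 (adjusted p = 4.61e-05). In Sa/CD99 the rise was 5.68 ± 0.51 at both days (adjusted p = 4.44e-05 and 3.62e-05). The table holds 14.99, the highest value it gives on those arrays, in 6 of the 8 later columns, so these values have no order among themselves. Both probes of the entry moved alike: in SaOS-2 at day 7 their log2 signal ratios to day 0 were 6.52 and 5.83, and in Sa/CD99 at day 14 they were 7.39 and 6.60.

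hsa-miR-1308, which matches a transfer RNA for glycine, also rose in both cell types. Its signal at day 0 was 26.7 and 29.0 in SaOS-2 and 20.6 and 25.4 in Sa/CD99. It was 216 and 1130 in SaOS-2 and 349 and 610 in Sa/CD99 at day 7, and 1137, 1783, 1724 and 2919 in the same order at day 14. The days did not overlap within Sa/CD99, and in SaOS-2 the higher array of day 7 lay just under the lower array of day 14. The log2 difference from day 0 was 3.75 ± 0.56 at day 7 and 4.75 ± 0.56 at day 14 in SaOS-2 (limma, adjusted p = 0.00105 and 0.000201) and 3.51 ± 0.56 and 4.89 ± 0.56 in Sa/CD99 (adjusted p = 0.00149 and 0.000152). Both probes rose, with log2 signal ratios of 6.52 and 6.64 in Sa/CD99 at day 14.

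hsa-miR-1246, the entry linked to U2 small nuclear RNA, rose less on the log2 scale. Its signal was 86.7 and 57.0 in SaOS-2 and 72.5 and 75.01 in Sa/CD99 at day 0. At day 7 it was 364 and 721 in SaOS-2 and 466 and 1002 in Sa/CD99, and at day 14 it was 522, 626, 734 and 1078 in the same order. Day 0 lay apart from both later days, which overlapped in SaOS-2 and in Sa/CD99. The log2 difference from day 0 was 2.23 ± 0.485 at day 7 and 1.85 ± 0.485 at day 14 in SaOS-2 (limma, adjusted p = 0.00768 and 0.0152), and 2.36 ± 0.485 and 1.84 ± 0.485 in Sa/CD99 (adjusted p = 0.00665 and 0.00976). The ratio of its geometric mean scanner signal to day 0 was 7.29 and 8.13 in SaOS-2 and 9.27 and 12.1 in Sa/CD99 at days 7 and 14. Its 2 calls in SaOS-2 were lost without SaOS-2 day 0 replicate 2, that of SaOS-2 at day 14 also without SaOS-2 day 14 replicate 1, and that of Sa/CD99 at day 7 without Sa/CD99 day 7 clone 36.

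**Figure D2:**
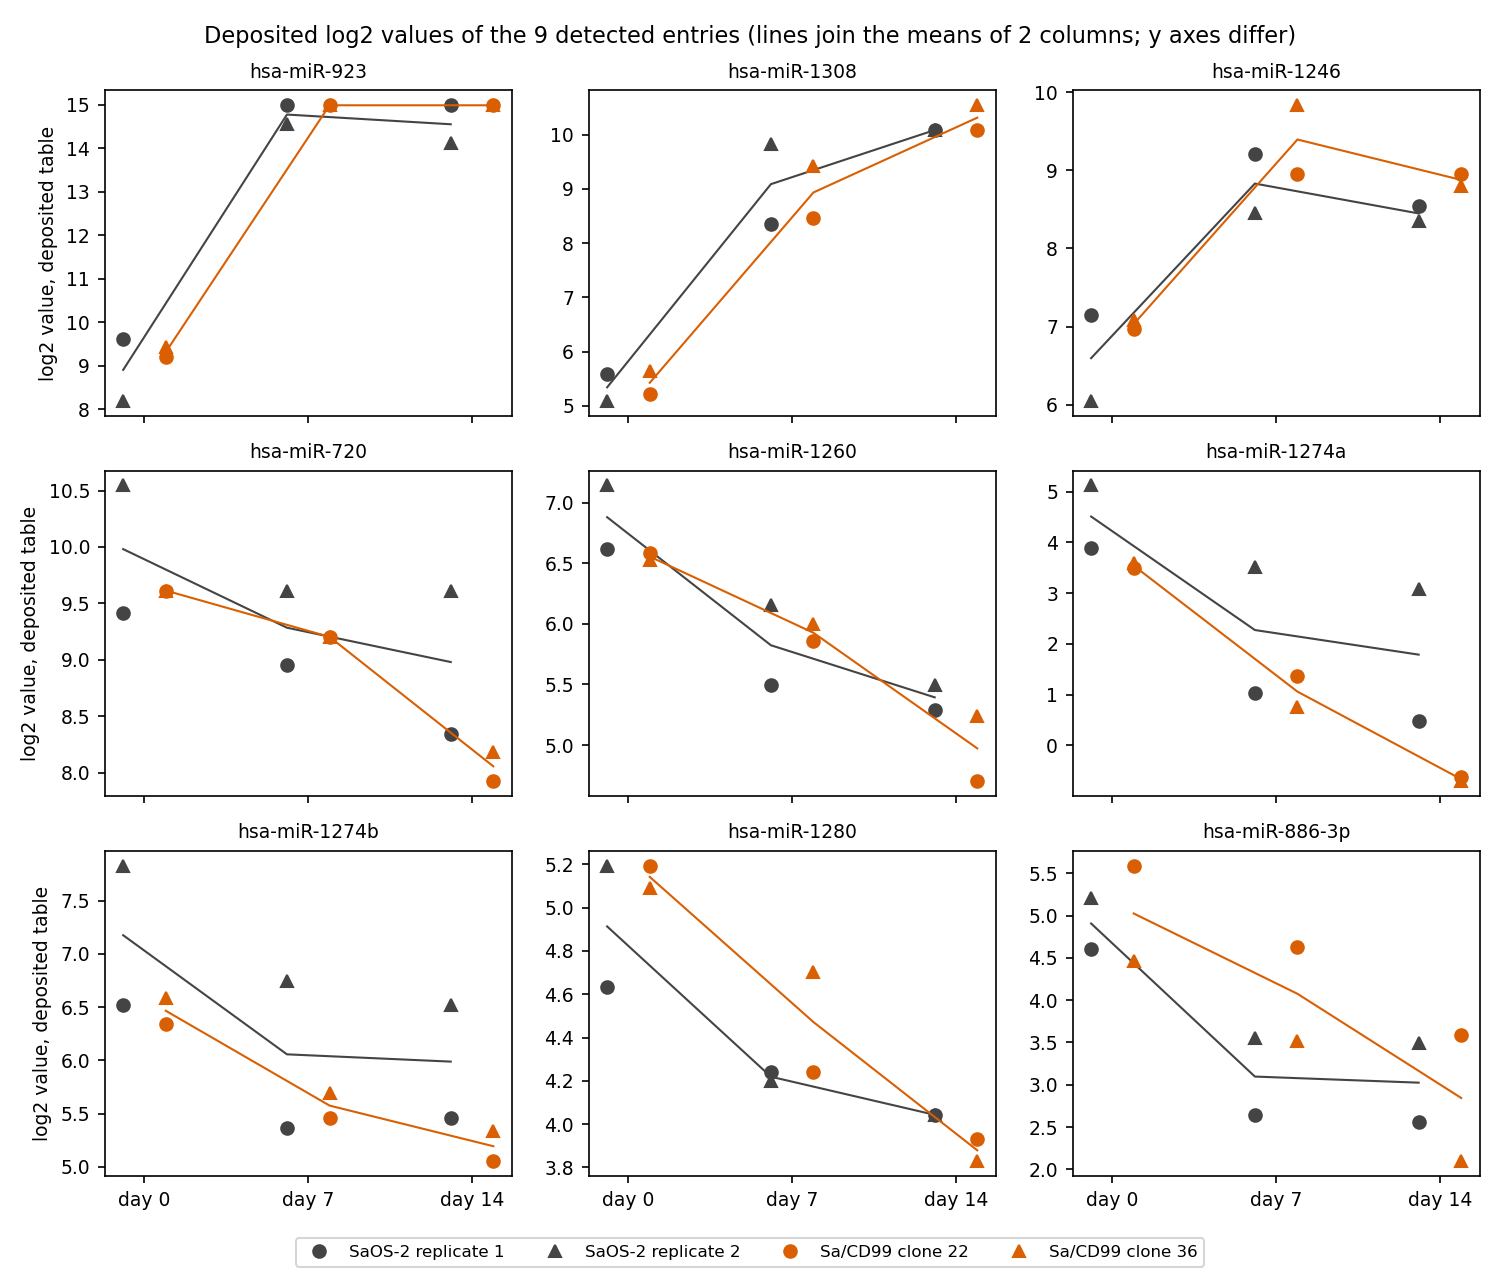
Deposited log2 values (y axis, a scale of its own in each panel) of the 9 detected entries at days 0, 7 and 14 (x axis), with a point for each column and lines joining the means of 2 columns. hsa-miR-923, hsa-miR-1308 and hsa-miR-1246 lie higher at days 7 and 14 than at day 0 in both cell types, and the means of the other 6 lie lower.

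These 3 entries made up every rise among the 9 entries tested, of 219 human names that passed the filter of detection on both arrays of at least 1 group. hsa-miR-886-5p did not pass it, being undetected on all 12 arrays, and the other 9 were detected on all 12. At day 7 in SaOS-2, 3 of 9 rose and 0 fell, where 36.5% of all tested names were called, 21.5% higher and 15.1% lower. At day 7 in Sa/CD99, 3 of 9 rose and 0 fell, where 32% of all were called, 21% higher and 11% lower. At day 14 in SaOS-2, 3 rose and 2 fell, where 55.7% of all were called, 28.8% higher and 26.9% lower. At day 14 in Sa/CD99, 3 rose and 5 fell, where 74.4% of all were called, 37% higher and 37.4% lower. These shares of entries lie close to the background or, at day 14 in Sa/CD99, little above it, so the counts say nothing particular about the entries. The median log2 difference of the 9 was -1.0 in SaOS-2 and -1.27 in Sa/CD99 at day 14, beside -0.47 and -0.64 over all tested names. With the replicate or clone number as a block, 5 entries were called in SaOS-2 at day 7, beside 42.9% of all names, the added ones being falls of hsa-miR-1260 and hsa-miR-886-3p (limma, adjusted p = 0.0381 and 0.0441). With that block 7 were called in SaOS-2 at day 14, 3 higher and 4 lower, beside 61.2% of all names. The count in SaOS-2 at day 7 was 5 without SaOS-2 day 7 replicate 2, beside 27.9% of all names. The count in SaOS-2 at day 14 was 2 without SaOS-2 day 0 replicate 2 (36.7% of all names) and 2 without SaOS-2 day 14 replicate 1 (29.8%). The count in Sa/CD99 at day 14 was 5 without Sa/CD99 day 0 clone 22 (62.4%). In the last 3 of these fits the share over all names fell with the count of entries.

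Of the changes from day 0, that of SaOS-2 at day 7 is within 1 slide, and there the 3 entries rose by 5.87, 3.75 and 2.23 on the log2 scale, as given above. The other 3 changes from day 0 compare arrays of different slides, and for them slide and day cannot be told apart. Sa/CD99 days 7 and 14 also share a slide, and the difference between those days was not tested. The comparisons of the cell types at days 0 and 14 are each within 1 slide.

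The 5 remaining transfer RNA entries and hsa-miR-886-3p had lower means at the later days in the table, with far smaller differences in scanner signal. hsa-miR-720 matches a transfer RNA for threonine. Its signal at day 0 was 531 and 1185 in SaOS-2 and 491 and 565 in Sa/CD99, and at day 14 it was 442 and 1030 in SaOS-2 and 393 and 629 in Sa/CD99. The days overlapped in both cell types. In the table its log2 difference at day 14 was -1.56 ± 0.53 in Sa/CD99 (limma, adjusted p = 0.0283) and -1.0003 ± 0.53 in SaOS-2 (adjusted p = 0.14). The call in Sa/CD99 was lost without any 1 of the 4 Sa/CD99 arrays of days 0 and 14. Its share of the human signal was 5.38% to 10.4% at day 0 and 0.689% to 2.22% later.

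hsa-miR-1260 and hsa-miR-1280 match transfer RNAs for leucine. The signal of hsa-miR-1260 at day 0 was 55.0 and 123 in SaOS-2 and 58.5 and 49.8 in Sa/CD99, and at day 14 it was 45.0, 95.3, 36.7 and 63.6 in the same order, so that the days overlapped. Its log2 table value was lower at day 14 by -1.49 ± 0.37 in SaOS-2 (limma, adjusted p = 0.0133) and by -1.58 ± 0.37 in Sa/CD99 (adjusted p = 0.00635). The call in SaOS-2 was lost without SaOS-2 day 0 replicate 2 and without SaOS-2 day 14 replicate 1. hsa-miR-1280 had signals of 13.2 and 31.0 in SaOS-2 and 20.1 and 17.6 in Sa/CD99 at day 0, and of 22.1, 34.98, 22.2 and 26.6 in the same order at day 14. Its signal was thus no lower at day 14 in either cell type, while its log2 table value differed by -0.87 ± 0.33 in SaOS-2 (adjusted p = 0.0505, and 0.0397 with the replicate block) and by -1.26 ± 0.33 in Sa/CD99 (adjusted p = 0.00924). The call in Sa/CD99 was lost without Sa/CD99 day 0 clone 22.

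hsa-miR-1274a and hsa-miR-1274b match transfer RNAs for lysine. hsa-miR-1274a is dim, with signals of 6.25 and 29.2 in SaOS-2 and 4.02 and 5.33 in Sa/CD99 at day 0, of 2.93, 23.8, 5.50 and 4.26 at day 7, and of 5.10, 20.3, 4.10 and 5.71 at day 14. Its log2 table value at day 14 differed from day 0 by -4.21 ± 1.01 in Sa/CD99 (limma, adjusted p = 0.00685) and by -2.72 ± 1.01 in SaOS-2 (adjusted p = 0.0495), and the second call held in 3 of the 12 fits that left out 1 array. Without SaOS-2 day 14 replicate 1 the value in SaOS-2 was -1.43. In Sa/CD99 the geometric mean of its scanner signal at day 14 was 1.04 times that of day 0. hsa-miR-1274b had signals of 46.0 to 178 at day 0 and 31.8 to 192 later, and none of its changes from day 0 was called in the table (adjusted p from 0.0931 to 0.295), while by rma on the paired arrays that of Sa/CD99 at day 14 was (-1.55, adjusted p = 0.0292).

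hsa-miR-886-3p, the 3′ piece of nc886, had signals of 12.8 and 31.7 in SaOS-2 and 23.9 and 9.95 in Sa/CD99 at day 0, and of 8.30, 25.7, 19.5 and 12.3 in the same order at day 14. The days overlapped in both. Its log2 table value at day 14 differed by -2.18 ± 0.71 in Sa/CD99 (limma, adjusted p = 0.0229) and by -1.88 ± 0.71 in SaOS-2 (adjusted p = 0.0518, and 0.0291 with the replicate block). The call in Sa/CD99 was lost without Sa/CD99 day 0 clone 22 (-1.62) and without Sa/CD99 day 14 clone 36 (-1.43). The other arm, hsa-miR-886-5p, stood at the floor of every column.

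By the study's rule of an unadjusted p of at most 0.01 with a fold of at least 1.4, the falls of hsa-miR-720 and hsa-miR-886-3p in Sa/CD99 and of hsa-miR-1274a in SaOS-2 were not called. The calls of the falls differed between scalings too, and those of the 3 rises held under each that kept the column labels. Over these 6 entries, the ratio of geometric mean scanner signal to day 0 was taken with no normalization. It ran from 0.533 to 1.19 in SaOS-2 and from 1.05 to 1.30 in Sa/CD99 at day 7. At day 14 it ran from 0.724 to 1.37 and from 0.895 to 1.29 in the same order. The same ratio was 61.4 and 103 for hsa-miR-923, 51.2 and 98.0 for hsa-miR-1308 and 8.13 and 12.1 for hsa-miR-1246 in SaOS-2 and Sa/CD99 at day 14. With each table column centred on its 75th percentile over the names detected on all 12 arrays, which moved the median of all tested names at day 14 from -0.47 to 0.04 in SaOS-2 and from -0.64 to 0.11 in Sa/CD99, hsa-miR-1274a was the only fall still called, in Sa/CD99 (-3.46, adjusted p = 0.017), and 3 entries were called in SaOS-2 (45.7% of all names, 31.5% higher and 14.2% lower) and 4 in Sa/CD99 (61.2% of all names, 39.3% higher and 21.9% lower) at day 14. With paired scanner signals scaled in the same way, the 3 rises were the only entries called at day 14 in both cell types, where 41.1% of all names were called in SaOS-2 and 52.1% in Sa/CD99. By rma on the paired arrays 4 entries fell in SaOS-2 at day 14, where 57 of the 219 names fell (55.3% called in either direction). In Sa/CD99 5 fell, where 76 of the 219 names fell (71.7% called in either direction). The fall of hsa-miR-1274a was not among them in SaOS-2 (-1.70, limma, adjusted p = 0.0685) or in Sa/CD99 (-1.23, adjusted p = 0.147).

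**Figure D3:**
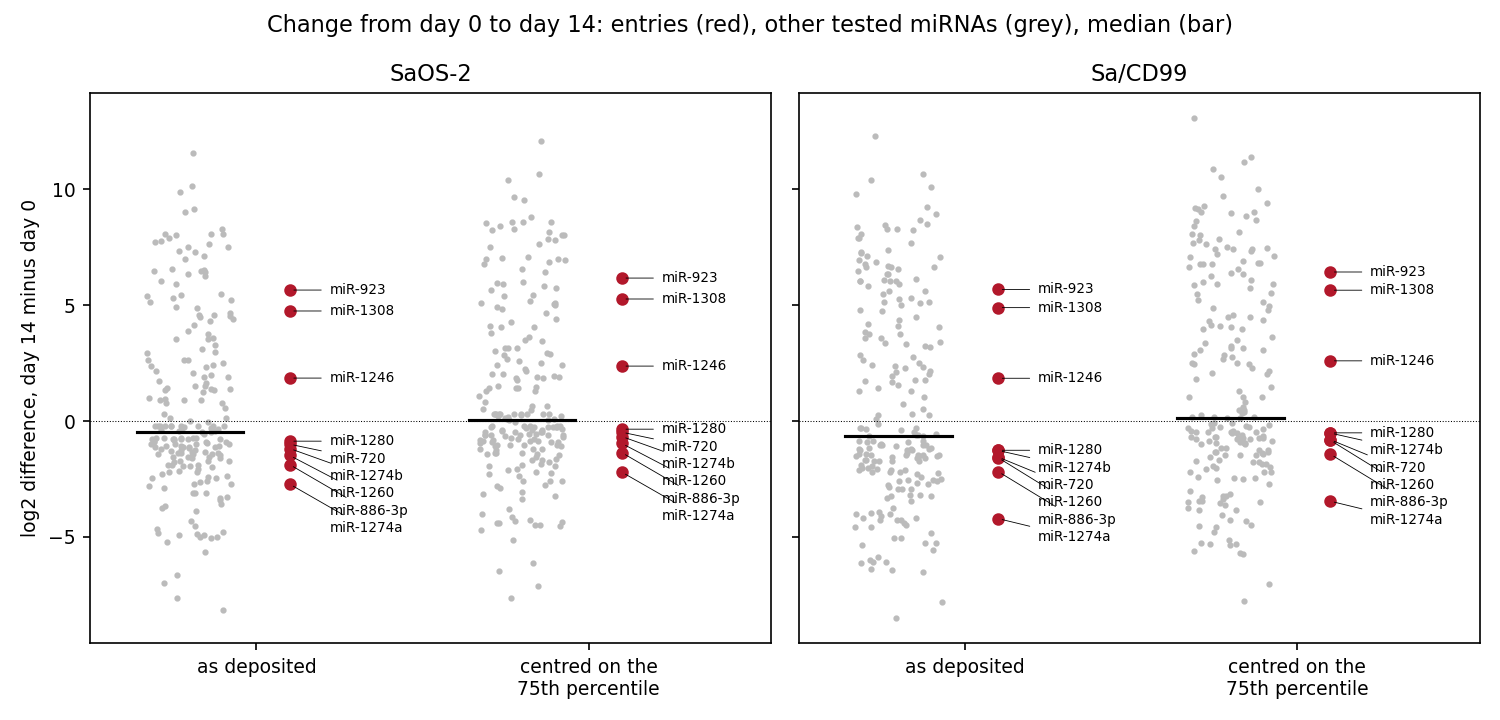
The log2 difference between day 14 and day 0 (y axis) of the 9 entries (red), of the other tested names (grey) and the median of all 219 (bar), from the table as deposited and with columns centred on the 75th percentile. Centring moves every value up together, so that hsa-miR-1280 goes from -1.26 to -0.51 in Sa/CD99 while hsa-miR-923 goes from 5.68 to 6.43.

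No entry passed the test between transfected and parental cells, the comparison the study was built on. At day 0, day 7 and day 14, 0 of 9 passed the study's rule of an unadjusted limma p of at most 0.01 with a fold of at least 1.4, where 2.74%, 3.2% and 9.13% of the 219 names passed. Over all days, 0 of 9 passed an adjusted p of 0.05 (2.74% of all names did). At an unadjusted limma p under 0.05 there was 1 of 9, beside 28 of the 219 names. The 1 entry was hsa-miR-1274a, at -1.55 ± 0.58 on the log2 scale (limma, adjusted p = 0.32). The differences of the other 8 ran from -0.66 ± 0.36 for hsa-miR-1274b to 0.48 ± 0.28 for hsa-miR-1246, and that of hsa-miR-923 was 0.35 ± 0.30 (adjusted p = 0.601). At day 14 hsa-miR-1274a differed by -2.46 ± 1.01 (adjusted p = 0.237). Without SaOS-2 day 14 replicate 1 it was called by the study's rule, at -3.76 (adjusted p = 0.0599), in a fit that called 14.2% of all names and in which the other groups supply the spread of the 1 SaOS-2 array left. The interaction of cell type and day was called for 0 of 9 by an adjusted p of 0.05 (1.83% of all names). At an unadjusted limma p under 0.05 there were 0 of 9, beside 26 of the 219 names.

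Under the filed samples these comparisons gave other values. All 4 arrays of low hsa-miR-923 signal were filed as Sa/CD99, 1 at day 0, 1 at day 7 and 2 at day 14. With scanner arrays as filed, summarised by rma, 7 of 9 entries were called over all days, where 43.7% of the 213 tested names were: hsa-miR-923 (-3.55 ± 1.01, adjusted p = 0.0272), hsa-miR-1308 (-3.15 ± 0.81) and hsa-miR-1246 (-1.56 ± 0.44) were lower in Sa/CD99, and hsa-miR-720, hsa-miR-1260, hsa-miR-1274a and hsa-miR-1274b were higher by 0.995 to 1.17. By total gene signal as filed, 3 of 9 were called over all days (27.7% of all names), and by rma 1 at day 14 alone, hsa-miR-1246 (7.04% of all names). As filed, 0 entries were called for a change with time in either cell type by an adjusted limma p of 0.05, where 0% of all names were called by rma and 0% to 0.469% by total gene signal. The mean share of the 10 entries was 67.7% in SaOS-2 and 31.5% in Sa/CD99. That record puts each cell type on a slide of its own, and the effects of slide and transfection cannot be told apart in it.

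**Figure D4:**
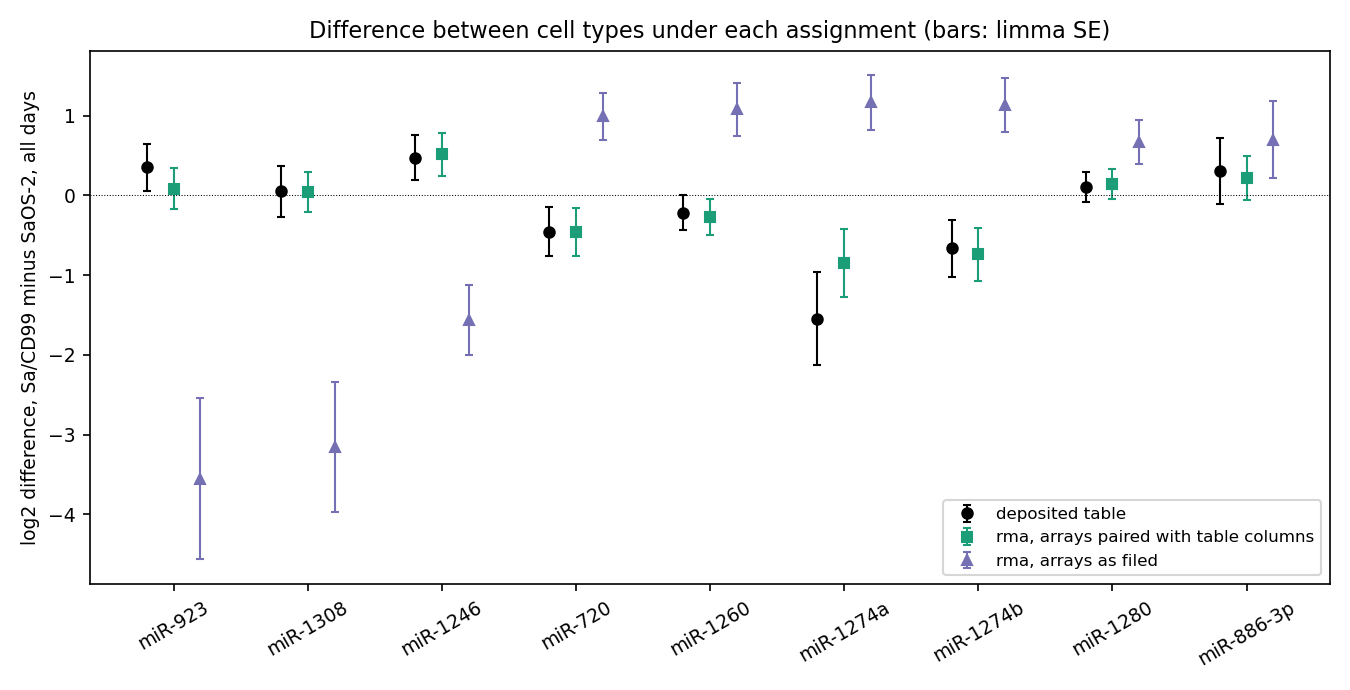
The log2 difference between Sa/CD99 and SaOS-2 over all days (y axis, bars are limma standard errors) for each of the 9 entries (x axis), from the deposited table, from rma values of the scanner arrays under the paired column labels, and from the same rma values under the filed samples. Both estimates by column label lie on the same side of 0 for all 9 entries, and the estimate as filed lies on the other side for 7 of them.

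By the column labels, SaOS-2 replicate 2 had higher signal than replicate 1 on every day in all 6 transfer RNA entries. In 5 of them, all but hsa-miR-1308, its arrays stood apart from every other array. Its arrays of days 0, 7 and 14 were filed as Sa/CD99 day 14 clone 36, Sa/CD99 day 7 clone 36 and SaOS-2 day 14 replicate 1. hsa-miR-1274a signal was 29.2, 23.8 and 20.3 in replicate 2 at days 0, 7 and 14 and 6.25, 2.93 and 5.10 in replicate 1. hsa-miR-1274b was 178, 187 and 192 against 52.1, 31.8 and 46.1, and hsa-miR-720 was 1185, 1077 and 1030 against 531, 343 and 442. hsa-miR-1260 was 123, 127 and 95.3 in replicate 2, against at most 71.7 on the other 9 arrays, and hsa-miR-1280 was 31.0, 39.2 and 34.98 against at most 26.6. In each of these 5 entries the 3 arrays of replicate 2 lay above all other 9 arrays, those of Sa/CD99 included. How many of all human names set these 3 arrays apart in this way was not counted. The signal of names outside the 10 entries was also higher in replicate 2 on each day, at 9467, 19231 and 20091 against 8133, 8558 and 12612, and its part in these gaps was not tested. Of 100 names detected on all 12 arrays, 26 were higher in replicate 2 on all 3 days in the table, among them hsa-miR-720, hsa-miR-1260, hsa-miR-1274a, hsa-miR-1274b and hsa-miR-886-3p but not hsa-miR-1280, and 3 were at least 2-fold higher in it on all 3 days (3.0%): hsa-miR-1274a, hsa-miR-1274b and hsa-miR-27a. In Sa/CD99, hsa-miR-886-3p was the only name of the 100 at least 2-fold higher in clone 22 than in clone 36 on all 3 days (1.0%), with log2 differences of 1.13, 1.11 and 1.496 in the table. By scanner signal it was 2.40, 1.94 and 1.59 times as high in clone 22, under 2-fold at days 7 and 14. These are descriptions by column label of 2 cultures or clones, with no test. The filed record does not keep these replicates and clones together, and what sets the replicates apart is not given in the labels.

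**Figure D5:**
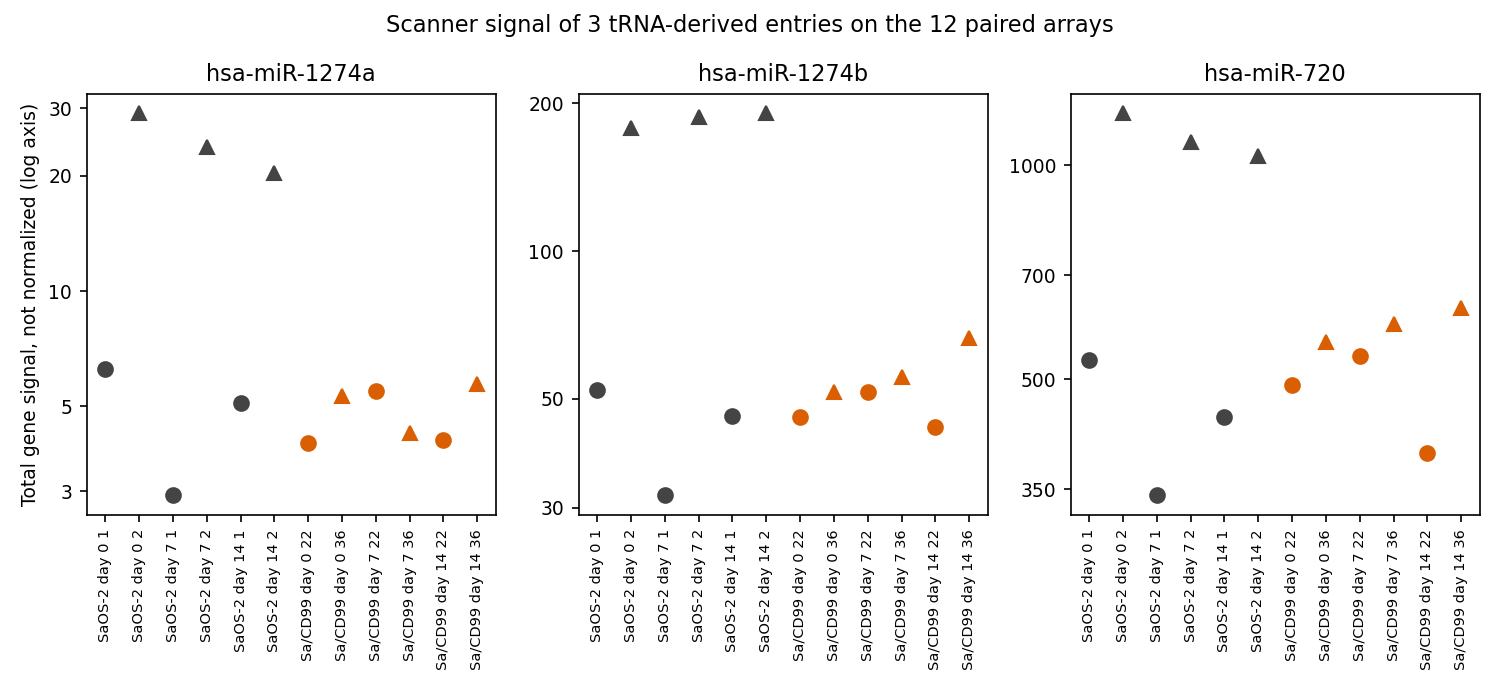
Scanner signal, not normalized (log y axis, a scale of its own in each panel), of hsa-miR-1274a, hsa-miR-1274b and hsa-miR-720 on the 12 arrays by column label (x axis), with circles for SaOS-2 replicate 1 (grey) or clone 22 (orange) and triangles for SaOS-2 replicate 2 (grey) or clone 36 (orange). The 3 grey triangles lie above all other points in each panel.

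The names most like each entry over the 12 columns, among 91 others detected on all arrays, differed between the entries. hsa-miR-1274a and hsa-miR-1274b were most like hsa-miR-27a (Pearson r = 0.976 and 0.938), hsa-miR-720 most like hsa-miR-27b (r = 0.971), hsa-miR-1280 most like hsa-miR-221 (r = 0.951) and hsa-miR-1260 most like hsa-miR-22 (r = 0.936). On the 8 later columns alone r was 0.989, 0.934, 0.969, 0.952 and 0.876. hsa-miR-1246 was most like hsa-miR-1268 (r = 0.912), but on the later columns r was -0.03, so that this likeness rests on the gap between day 0 and the rest. hsa-miR-923 was most like hsa-miR-1225-5p (r = 0.977), and with 6 of its 8 later values tied no r is given over those columns. hsa-miR-1308 and hsa-miR-1202 had r = 0.989 over 12 columns and 0.913 over 8, and hsa-miR-886-3p and hsa-miR-181a 0.851 and 0.649. All columns share their normalization, and the r are descriptions across columns of 6 groups.

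Of 12 further names known or thought to come from small nucleolar, small nuclear, transfer or other structural RNA, 6 were on the array and 0 were detected on any array. A list of 12 abundant canonical miRNAs, among them some of the let-7 family, miR-21 and miR-125b, was detected on all 12 arrays. It took 28.9% to 30.4% of the human signal at day 0 and 4.07% to 10.3% later. By the deposited log2 values, 3 and 8 of the 12 fell in SaOS-2 at days 7 and 14, and 1 and 9 in Sa/CD99, with 0 rises, beside the background of called names given above. With centred columns 3 fell in SaOS-2 and 5 in Sa/CD99 at day 14, where 14.2% and 21.9% of all tested names fell. Their summed signal ran from 2576 to 3286 at day 0 and from 2325 to 4753 later.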

How the data were processed

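Total RNA of 12 cultures was labelled with Cy3 at its 3′ ends and hybridised to one-colour Agilent human miRNA arrays. The authors scanned these and deposited the intensity of each spot and the total gene signal of each miRNA from Feature Extraction (10.7.3.1 by the file headers), with no normalization across arrays. A deposited log2 table, made by the authors with RMA per the labels, covers the same arrays. Each column ranked the names exactly as the total gene signal of its paired array, and undetected names stood at a floor near -3, so its levels follow ranks. How the table was centred is not given in the sources used here.

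The main values are the table by its own column labels. limma 3.58.1 on R 4.3.3 fitted 6 group means with 6 residual degrees of freedom to the 219 names that were detected on each array of some group. Daily differences between cell types were called at p of at most 0.01 and a fold of at least 1.4 (0.485 on the log2 scale), as in the study's methods, and the others at a Benjamini-Hochberg adjusted p of 0.05 over all tested names. The scanner arrays were refitted from total gene signal scaled to the 75th percentile and from rma values, as filed and as paired. Shares, ratios and r have no test. All 10 entries are named. They and both context lists were chosen with earlier results of these data known, so no count is independent support. Each Sa/CD99 clone was followed over the 3 days, so clone numbers pair those arrays. The deviations of same-numbered arrays from their group means had correlations across names of 0.0338 to 0.184 for Sa/CD99 and of 0.18 to 0.203 for SaOS-2. Scripts were tested on simulated data. Python 3.11.15 read the files. The number of arrays, 2 a group, limits the precision, and no read depth applies.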

Additional observations from a re-analysis of the deposited data

How the results depend on the processing

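The rises of hsa-miR-923, hsa-miR-1308 and hsa-miR-1246 kept direction and call in the 8 settings by column label, and in the fits leaving out 1 array except for the calls of hsa-miR-1246 named in the report. The count of entries called in SaOS-2 at day 7 (3) was 6 by rma on paired arrays (45.7% of all names called), 7 with no filter (82.2%), 5 with names detected on all 12 arrays (39%) and 5 with the replicate block (42.9%), which moved no other count of entries by over 1.5 times and otherwise changed 2 calls, given in the report. In SaOS-2 at day 14 (5) it was 3 by centred columns (45.7%), 3 by paired total gene signal (41.1%) and 8 with no filter (85.4%). In Sa/CD99 it was 5 with no filter (80.8%) at day 7 (3), and 4 by centred columns (61.2%) and 3 by paired total gene signal (52.1%) at day 14 (8). The counts with no filter include hsa-miR-886-5p, which was detected on no array. Leaving out 1 array gave 2 to 5, 2 to 6, 2 to 3 and 5 to 8 entries in these 4 comparisons (27.4% to 52.1%, 29.8% to 60.3%, 20.2% to 37.9% and 59.8% to 78.0% of all names), and 0 to 1 between cell types at day 14 (2.45% to 14.2%). The cause was not tested, beyond the smaller or larger number of names over which p was adjusted in the filters. Without hsa-miR-923 the median share of the entries (66.0%) was 6.80% of a total that still holds it, and 14.9% with it out of the total too. Leaving out 1 array gave differences in mean share of 1.04 to 4.97 points between cell types and of 48.7 to 54.6 between days, and -0.19 to 0.30 for the difference of hsa-miR-1308 between cell types, which was near 0.

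With arrays as filed the mean share differed by -36.1 points between Sa/CD99 and SaOS-2 and by -14.7 points between days 14 and 0. Over all days 3 entries were called by total gene signal (27.7% of all names) and 7 by rma (43.7%), and 1 by rma at day 14 (7.04%). With time 0 were called in either cell type by both (0% to 0.469% of all names). Values that changed sign as filed, among the differences that were called and those between cell types over all days, are given by total gene signal and then by rma. Uncalled differences changed sign too, among them those of hsa-miR-1274b in both cell types and hsa-miR-720 in SaOS-2 at day 14 and of hsa-miR-1274a in Sa/CD99 at day 7. Between cell types over all days they were -3.92 and -3.55 for hsa-miR-923, -3.70 and -3.15 for hsa-miR-1308, -1.98 and -1.56 for hsa-miR-1246, 0.50 and 0.995 for hsa-miR-720, 0.74 and 1.17 for hsa-miR-1274a (1.11 and 1.78 at day 14, uncalled in the table), 0.50 and 1.13 for hsa-miR-1274b and 0.50 and 1.08 for hsa-miR-1260. From day 0 to day 14 in Sa/CD99 they were -3.08 and -2.99 for hsa-miR-923, -1.56 and -1.41 for hsa-miR-1308, -1.57 and -1.39 for hsa-miR-1246, 0.73 and 1.45 for hsa-miR-720, 0.47 and 0.81 for hsa-miR-886-3p, 1.60 and 2.32 for hsa-miR-1274a, 0.17 and 0.55 for hsa-miR-1280 and 0.53 and 0.86 for hsa-miR-1260. In SaOS-2 they were -1.11 and -0.52 for hsa-miR-1308, -0.33 and -0.014 for hsa-miR-1246, 0.34 and 0.99 for hsa-miR-1274a and 0.31 and 0.77 for hsa-miR-1260 at day 14, and -0.98 and -0.70 for hsa-miR-1308 and -0.31 and -0.079 for hsa-miR-1246 at day 7. By total gene signal alone hsa-miR-923 was at -0.475 and -1.02 in SaOS-2 at days 7 and 14 and hsa-miR-1246 at -0.023 in Sa/CD99 at day 7. These settings differ from the main values in the samples' labels, in the values used (total gene signal or rma in place of the table) and in the names tested (213 in place of 219).

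A fit with slide as a term was not run, since each group lies on 1 slide. With only the 4 arrays of a day, 0 of 9 entries were called between cell types at days 0, 7 and 14, where 4.32%, 3.51% and 6.9% of all names were. Dim entries such as hsa-miR-1274a and hsa-miR-886-3p are the least precise.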
